A study of Mus musculus with 3 samples.

Results

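The genes described here are 41 genes of programmed cell death and of the response to the transcription factor p53. They were named by symbol and comprise the p53 inhibitor Mdm2, p53 targets and growth arrest genes, the BCL2 family, caspases with their activators, death receptors with their adaptors, and inhibitor of apoptosis proteins. Of the 41, 37 had a probe set annotated to 1 symbol, among 7842 named genes on the array. Trp53, Bax, Tnfrsf10b and Ripk1 were not analysed here. RNA of cultured mouse dermal fibroblasts was measured on Affymetrix arrays in 3 genotypes. FGFR3Act cells carried Fgfr3 with the G374R change and without the neo cassette, and their receptor is active without ligand. FGFR3KO cells carried the same G374R allele with the neo cassette kept and lack a functional receptor, per the labels. FGFR3WT cells were wild type, from Bl6 mice. For the mutants no strain is given, and for no culture the age or number of animals, in these sources. The series states n = 3 per group, but the table holds 1 column per genotype, so no spread between cultures could be computed, and no difference below carries a test.

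Cells die by apoptosis along a pair of routes. In the mitochondrial route, Bax and Bak1 open the outer membrane, cytochrome c escapes and joins Apaf1 in the apoptosome, and caspase 9 is activated; anti-apoptotic BCL2 proteins hold Bax and Bak1 back and BH3-only proteins release them. In the death receptor route, ligand-bound receptors gather Fadd and caspase 8, which Cflar restrains. The transcription factor p53 responds to DNA damage and other stress by inducing growth arrest genes, pro-apoptotic genes and Mdm2, its own inhibitor. In fibroblasts, p53 is best known for arrest and senescence, and growth factor signalling is known to raise survival proteins such as Mcl1.

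The deposited values are MAS5 signals, 1 per probe set and array. Signals under a floor, the 40th percentile of each array (123 for FGFR3Act, 122 for FGFR3KO, 121 for FGFR3WT), were raised to it, and a gene was compared if it lay above the floor on at least 1 array of a pair. Differences are given on the log2 signal scale, or as fold of signal. Fgfr3 itself read 2.42 on FGFR3Act, 3.76 on FGFR3KO and 1.06 on FGFR3WT, below the floor throughout, so it does not check the labels. Fibroblast markers were above the floor for 13 of 14 genes on each array. Their signals summed to 56290 on FGFR3Act, 80753 on FGFR3KO and 61121 on FGFR3WT. In FGFR3Act against FGFR3WT 9 of the 13 compared were lower, where 55.7% of all genes were, and their median log2 difference was -0.42. Of 27 macrophage and leukocyte markers, the FGFR3Act array had 22 over the floor, the FGFR3KO array 3 and the FGFR3WT array 2, and their signals summed to 50165, 2118 and 1767 in that order. Among them Lyz2 had 7037 on FGFR3Act, 48.2 on FGFR3KO and 51.4 on FGFR3WT, while Ptprc and Itgam were below the floor on every array. Markers of cycling cells summed to 2680 on FGFR3Act, 16271 on FGFR3KO and 8908 on FGFR3WT. Smooth muscle and pericyte markers summed to 1115 on FGFR3Act, 4402 on FGFR3KO and 1645 on FGFR3WT. Endothelial markers were below the floor on every array. In bulk RNA of this kind, fewer cells of a type and less RNA per cell cannot be told apart. The part of macrophage, fibroblast, smooth muscle and cycling cell transcripts in the differences below was not tested. The signal ratio of the 3′ to the 5′ beta-actin control probe set was 1.44 on FGFR3Act, 1.82 on FGFR3KO and 1.64 on FGFR3WT. A part of RNA quality in the differences was not tested either.

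The FGFR3Act array had higher signals than the other arrays for Cflar, the inhibitor of caspase 8, and for Perp, a p53 target of the cell membrane. It was also above FGFR3WT for Bcl2l1, the gene of the survival protein BCL-XL. The FGFR3KO array stood lowest for several p53 targets and for caspases 6 and 8. Of the 37 members, 31 were above the floor on every array and 33 on at least 1. Bik, Casp1, Casp12 and Xiap were below it on all 3. In FGFR3Act against FGFR3WT, 3 of 33 members compared were at least 2-fold higher, where 4.14% of all 5244 genes compared were, and 0 were at least 2-fold lower, where 4.79% of all genes were. In FGFR3KO against FGFR3WT, 0 of 32 members were at least 2-fold higher (1.93% of 5184 genes) and 1 at least 2-fold lower (3.61%), so that this count is close to that of all genes. In FGFR3Act against FGFR3KO, 8 of 33 were at least 2-fold higher (8.33% of 5297 genes) and 0 at least 2-fold lower (7.49%). The last pair uses the same FGFR3Act and FGFR3KO columns as the other pairs, and adds no array. After median centring, all genes split into 292 higher and 160 lower in FGFR3Act against FGFR3WT, against 217 and 251 as deposited, and into 154 and 124 in FGFR3KO against FGFR3WT, against 100 and 187 as deposited.

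**Figure D1:**
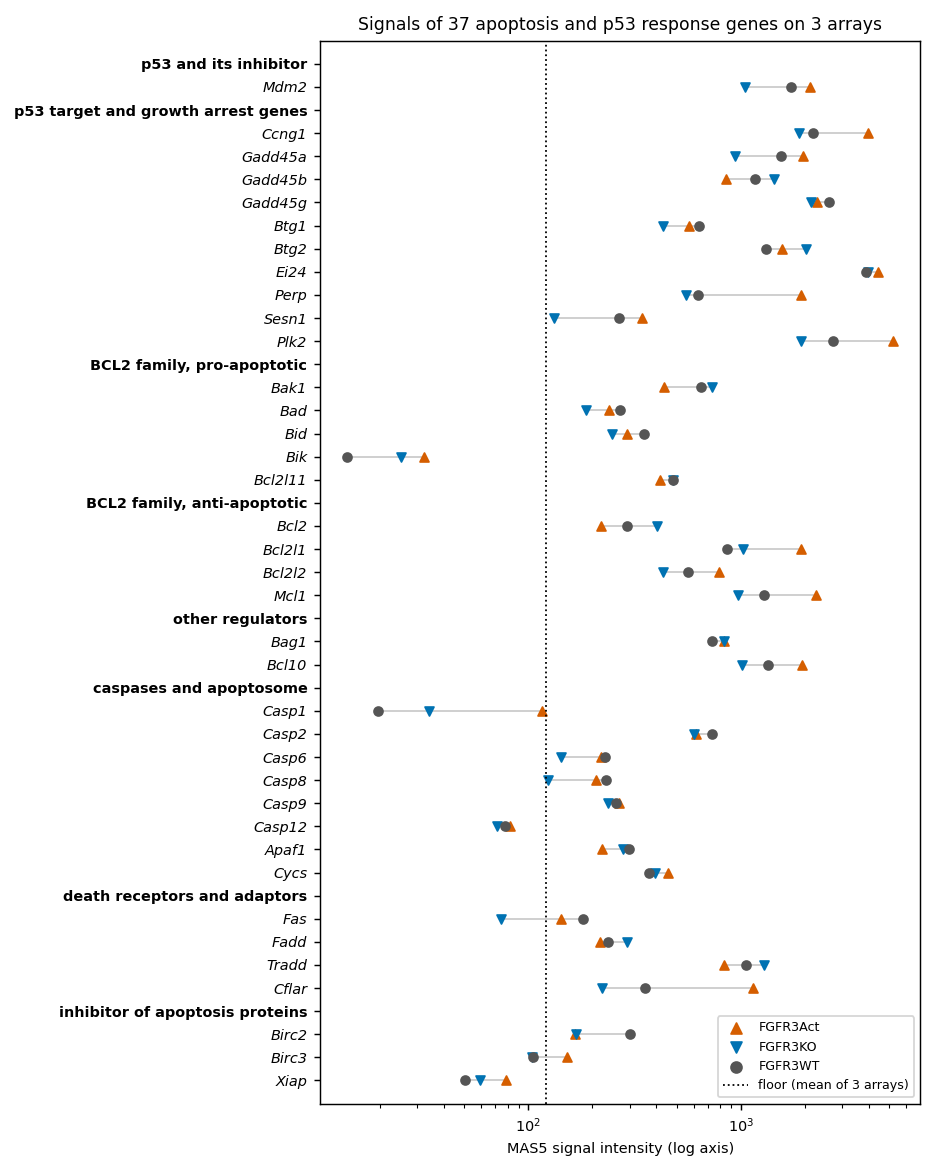
MAS5 signal intensity (log axis) of the 37 genes on the FGFR3Act, FGFR3KO and FGFR3WT arrays, grouped by role, with 1 point per array and no error bars because each genotype has 1 column; the dotted line is the floor. Cflar, Perp and Plk2 have their FGFR3Act point well to the right, Sesn1 and Fas their FGFR3KO point to the left, and Birc2 its FGFR3WT point to the right of both mutants.

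With 1 column per genotype, the spread nearest to an error that could be computed is that between probe sets of the same gene. For genes with at least 2 probe sets above the floor on both arrays, the log2 differences given by the 2 brightest probe sets lay a median of 0.30 apart in FGFR3Act against FGFR3WT (425 genes), 0.39 in FGFR3KO against FGFR3WT (422 genes) and 0.43 in FGFR3Act against FGFR3KO (407 genes). Their 90th percentiles were 0.89, 0.94 and 1.26. Where the brightest probe set was at least 2-fold apart, the second one was also at least 2-fold apart in the same direction for 13 of 28 genes in the first pair, 2 of 16 in the second and 25 of 64 in the third. The central 90% of all genes lay between -0.99 and 0.90 in FGFR3Act against FGFR3WT, between -0.92 and 0.77 in FGFR3KO against FGFR3WT and between -1.17 and 1.27 in FGFR3Act against FGFR3KO. Most members lay inside those ranges.

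**Figure D2:**
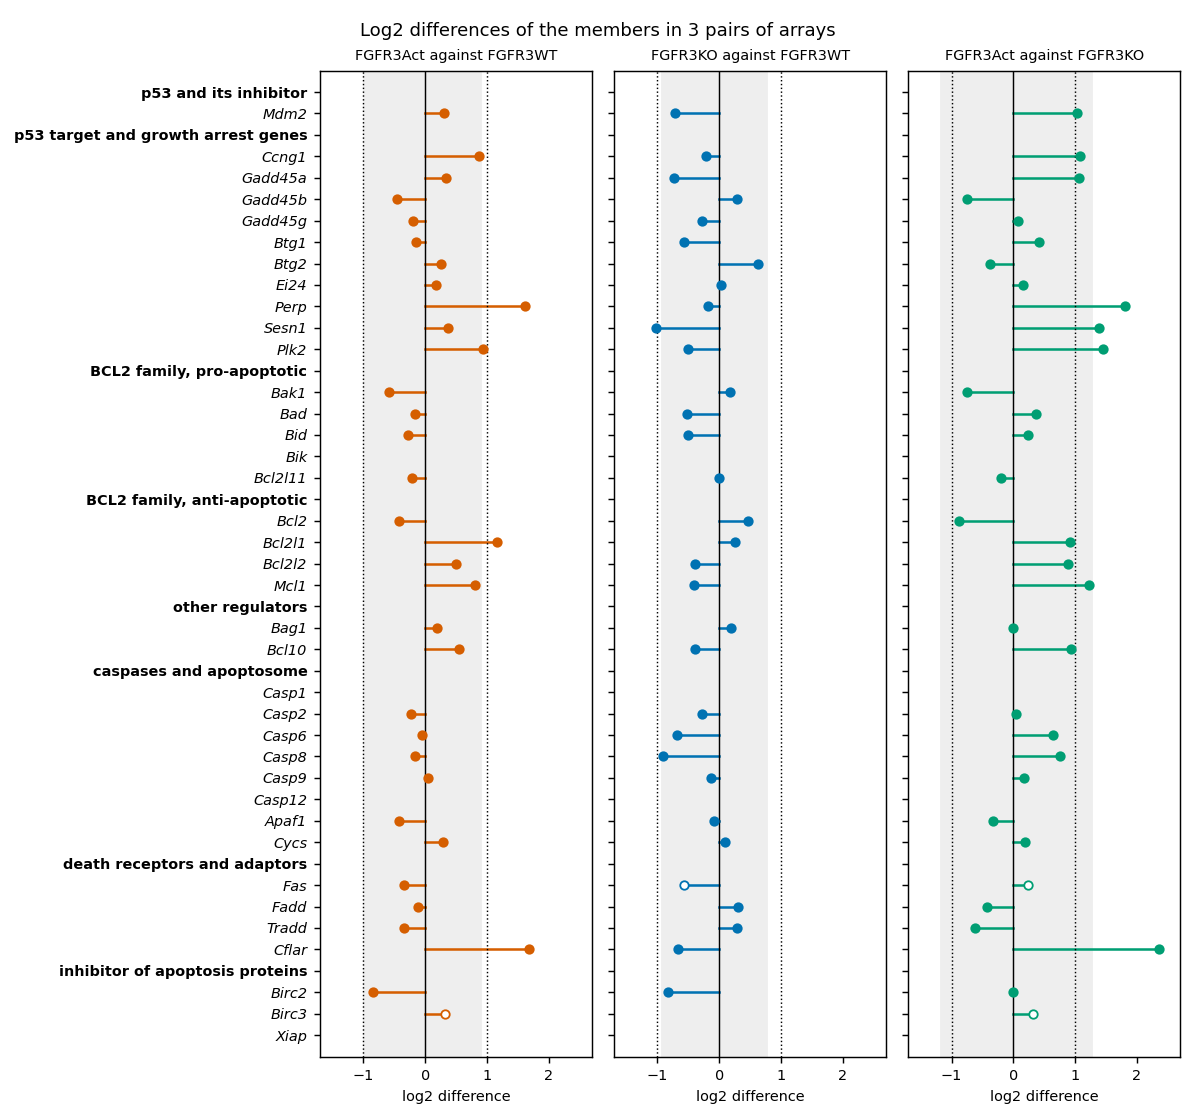
Log2 differences of the members in FGFR3Act against FGFR3WT, FGFR3KO against FGFR3WT and FGFR3Act against FGFR3KO, positive where the array named first is higher; the grey band holds the central 90% of all genes compared, dotted lines mark 2-fold, and open circles are bounds with 1 array at the floor. Perp, Cflar, Bcl2l1 and Plk2 lie beyond the band in the first panel, Sesn1 in the second, and Cflar, Perp, Plk2 and Sesn1 in the third.

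Mdm2 and 5 of the 10 p53 target and growth arrest genes had the order FGFR3Act, FGFR3WT, FGFR3KO from high to low. That order held for 21.6% of the 4503 genes above the floor on every array. Mdm2, the ubiquitin ligase that marks p53 for degradation, had 2121 on FGFR3Act, 1045 on FGFR3KO and 1719.9 on FGFR3WT. It was 2.03-fold higher on FGFR3Act than on FGFR3KO, with FGFR3Act 1.23-fold above FGFR3WT and FGFR3KO 1.65-fold below it. After quantile normalisation the log2 gap between the mutants was 0.94 for Mdm2 and 0.99 for Ccng1, just under 2-fold. Ccng1, encoding cyclin G1, a p53 target that brings a phosphatase to Mdm2, had 3981 on FGFR3Act, 1884 on FGFR3KO and 2181 on FGFR3WT. Its FGFR3Act signal stood apart, 2.11-fold above FGFR3KO and 1.83-fold above FGFR3WT, while the other two were 1.16-fold apart.

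Gadd45a, a stress protein that slows the cell cycle and aids DNA repair, had 1957 on FGFR3Act, 934 on FGFR3KO and 1544 on FGFR3WT. Here the low FGFR3KO signal made most of the 2.10-fold gap between the mutants. Sesn1, a sestrin that restrains the growth kinase complex mTORC1, had 343 on FGFR3Act, 131.5 on FGFR3KO and 266 on FGFR3WT. It was 2.60-fold higher on FGFR3Act than on FGFR3KO, and at 2.02-fold lower it was the one member past 2-fold in FGFR3KO against FGFR3WT. Its FGFR3KO signal lay just above the floor, and it was under 2-fold in that pair (-0.90 in log2 at the least) after quantile normalisation, median centring or the use of an offset. With the floor at the 60th percentile its difference between the mutants was -0.0412, since that floor raised FGFR3KO above the FGFR3Act signal. Plk2, a Polo-like kinase induced by serum and by p53, had 5203 on FGFR3Act, 1909 on FGFR3KO and 2713 on FGFR3WT, which made FGFR3Act 2.73-fold above FGFR3KO and 1.92-fold above FGFR3WT. Perp, a p53 target that also builds desmosomes in epithelia, had 1928 on FGFR3Act, 554 on FGFR3KO and 629 on FGFR3WT. FGFR3KO and FGFR3WT were 1.14-fold apart, and FGFR3Act was 3.48-fold above FGFR3KO and 3.07-fold above FGFR3WT, rank 96 from the top of 5244 genes against FGFR3WT. On that array 22 of 27 macrophage and leukocyte markers were above the floor.

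The other 5 p53 target and growth arrest genes did not share that order. Btg1, an anti-proliferative partner of the mRNA deadenylation complex, had 570.5 on FGFR3Act, 430 on FGFR3KO and 635 on FGFR3WT. It was 1.48-fold lower on FGFR3KO than on FGFR3WT. Its relative Btg2 had 1558 on FGFR3Act, 2016.5 on FGFR3KO and 1307 on FGFR3WT. Btg2 was thus 1.54-fold higher on FGFR3KO than on FGFR3WT, against the direction of most genes of this group. Gadd45g had 2274, 2148 and 2609.8 and Ei24, a protein of the endoplasmic reticulum, 4400.5, 3952 and 3884 on FGFR3Act, FGFR3KO and FGFR3WT, and neither was more than 1.22-fold apart in any pair. The probe sets of Gadd45b disagreed. The brighter one had 849.5 on FGFR3Act, 1431.5 on FGFR3KO and 1169 on FGFR3WT. The other had 929.6, 786 and 637 on the same arrays. FGFR3Act against FGFR3WT was therefore -0.46 by the first and 0.55 by the second in log2, and no direction can be given for this gene in the pairs with FGFR3Act.

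The promoters of members are shown because a p53 half-site, the element that p53 binds in pairs, can be looked for in them. The RefSeq table for GRCm38.p6 held windows of 250 bases before to 50 after the start site for 37 of the 41 genes. Bik, Perp, Tnfrsf10b and Tradd were not among them. The p53 half-site consensus, searched on both strands, was found in 8.36% of all 32851 such windows and in at least 1 window of 9.55% of 27025 genes. Among the members it was found for 8 of 37. Of the 7 members with a window that passed 2-fold on FGFR3Act above FGFR3KO, Mdm2, Ccng1, Gadd45a and Sesn1 held it. Of the 24 other compared members with a window, Ei24 and Birc2 did. Mdm2, Ccng1, Gadd45a, Sesn1 and Ei24 were listed as p53 or growth arrest genes, while most of the 24 others had other roles. The split therefore partly repeats how the members were listed, and it was not tested. Functional p53 sites of several of these genes are known to lie in introns, outside these windows. The cyclic AMP response element TGACGTCA, which reads the same on both strands, was found in 1.79% of windows and for 2.03% of genes. It was present for 4 of 37 members: Plk2, Btg2, Cycs and Birc2. An NF-kappaB consensus was found in 8.46% of windows, for 9.55% of genes and for 4 of 37 members: Bcl10, Bcl2l1, Trp53 and Xiap. This count is close to the share of all genes. The windows of the 4 higher genes with a half-site and of Plk2 follow, 5′ to 3′ along the gene's strand, with the half-site, or in Plk2 the cyclic AMP response element, in capitals. In the windows shown no second match of these motifs was found, and none overlapped another. Sesn1 has another window, chr10:41810324-41810623, in which none of these motifs was found.
Mdm2 (chr10:117710709-117711008, minus strand): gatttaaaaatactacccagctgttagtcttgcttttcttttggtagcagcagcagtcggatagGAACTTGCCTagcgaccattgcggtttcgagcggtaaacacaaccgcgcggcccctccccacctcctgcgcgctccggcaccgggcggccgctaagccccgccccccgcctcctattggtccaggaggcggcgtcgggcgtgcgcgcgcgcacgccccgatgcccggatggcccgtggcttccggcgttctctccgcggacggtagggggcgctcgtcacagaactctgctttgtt
Ccng1 (chr11:40755237-40755536, minus strand): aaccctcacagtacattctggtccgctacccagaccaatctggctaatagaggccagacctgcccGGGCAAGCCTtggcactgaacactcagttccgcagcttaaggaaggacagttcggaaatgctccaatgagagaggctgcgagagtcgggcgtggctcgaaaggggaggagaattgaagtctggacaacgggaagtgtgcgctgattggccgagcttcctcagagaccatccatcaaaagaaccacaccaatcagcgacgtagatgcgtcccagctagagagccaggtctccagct
Gadd45a (chr6:67037358-67037657, minus strand): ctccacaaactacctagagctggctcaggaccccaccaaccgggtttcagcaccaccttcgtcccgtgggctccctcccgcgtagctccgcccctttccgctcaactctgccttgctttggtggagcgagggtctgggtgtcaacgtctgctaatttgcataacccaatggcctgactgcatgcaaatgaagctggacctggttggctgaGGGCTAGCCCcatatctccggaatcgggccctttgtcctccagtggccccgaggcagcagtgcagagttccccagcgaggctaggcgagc
Sesn1 (chr10:41887189-41887488, plus strand): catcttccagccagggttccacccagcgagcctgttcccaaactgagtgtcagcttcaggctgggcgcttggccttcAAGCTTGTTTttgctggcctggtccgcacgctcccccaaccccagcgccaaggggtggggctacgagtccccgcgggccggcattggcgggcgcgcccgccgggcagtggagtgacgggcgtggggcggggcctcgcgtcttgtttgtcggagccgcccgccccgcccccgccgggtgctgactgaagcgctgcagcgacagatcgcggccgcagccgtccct
Plk2 (chr13:110394794-110395093, plus strand): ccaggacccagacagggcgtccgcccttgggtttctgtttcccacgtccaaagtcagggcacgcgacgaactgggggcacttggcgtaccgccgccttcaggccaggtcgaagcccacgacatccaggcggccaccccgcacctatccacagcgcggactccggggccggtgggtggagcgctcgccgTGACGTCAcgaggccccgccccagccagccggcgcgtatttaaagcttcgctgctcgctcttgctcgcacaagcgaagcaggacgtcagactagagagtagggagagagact

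Counted from the start site, the half-sites began at -186 in Mdm2, -185 in Ccng1, -173 in Sesn1 and -40 in Gadd45a, and the response element of Plk2 at -62. A match of letters describes the sequence; binding in these cells was not measured.

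In the BCL2 family, 3 of the 4 survival genes were higher on FGFR3Act than on either other array. Over all 4503 genes above the floor on every array, 21.6% had the order FGFR3Act, FGFR3WT, FGFR3KO from high to low. A further 9.88% had the order FGFR3Act, FGFR3KO, FGFR3WT. All 4 pro-apoptotic members that could be compared were lower on FGFR3Act than on FGFR3WT, each by less than 1.5-fold. In that pair 55.7% of all genes were lower. Bcl2l1 had 1929 on FGFR3Act, 1025 on FGFR3KO and 862 on FGFR3WT. FGFR3Act was 2.24-fold above FGFR3WT and 1.88-fold above FGFR3KO, and both mutants lay above FGFR3WT. A second Bcl2l1 probe set was below the floor on every array, and taking the mean of both left 0.39 in log2 against FGFR3WT. Mcl1, a survival protein that is turned over quickly, had 2256 on FGFR3Act, 968.5 on FGFR3KO and 1285 on FGFR3WT. It was 2.33-fold higher on FGFR3Act than on FGFR3KO and 1.76-fold higher than on FGFR3WT. Bcl2l2, the gene of BCL-W, had 793 on FGFR3Act, 428.5 on FGFR3KO and 562 on FGFR3WT. Its FGFR3Act signal was 1.85-fold above FGFR3KO.

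Bcl2 ran the other way, with 219 on FGFR3Act, 402 on FGFR3KO and 293 on FGFR3WT. It was 1.83-fold lower on FGFR3Act than on FGFR3KO. A second Bcl2 probe set gave 156.5, 132.9 and 147 on the same arrays, a log2 difference of 0.24 between the mutants, so the probe sets disagreed. Bak1, which forms the pore in the mitochondrial membrane, had 434 on FGFR3Act, 732 on FGFR3KO and 648 on FGFR3WT. It was 1.69-fold lower on FGFR3Act than on FGFR3KO and 1.49-fold lower than on FGFR3WT, while FGFR3KO and FGFR3WT were 1.13-fold apart. The BH3-only gene Bad had 239 on FGFR3Act, 187 on FGFR3KO and 269 on FGFR3WT. Bid, cut by caspase 8 to link both routes, had 291, 247 and 351 on those arrays. Both were highest on FGFR3WT, and lower on FGFR3KO by 1.44-fold for Bad and 1.42-fold for Bid. Bcl2l11, the gene of BIM, had 418 on FGFR3Act, 481 on FGFR3KO and 482 on FGFR3WT. Its second probe set gave the opposite direction against FGFR3WT (0.42 in log2 on FGFR3Act and 0.30 on FGFR3KO, bounds with FGFR3WT at the floor). Bik, another BH3-only gene, had 32.3, 25.3 and 14.1 on FGFR3Act, FGFR3KO and FGFR3WT, all below the floor.

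Of the regulators that do not belong to the family, Bcl10, an adaptor that carries signals to NF-kappaB, had 1940.5 on FGFR3Act, 1018 on FGFR3KO and 1336 on FGFR3WT, with FGFR3Act 1.91-fold above FGFR3KO and 1.45-fold above FGFR3WT. Bag1, a co-chaperone of Hsp70 that binds Bcl2, had 829, 831 and 729 on the same arrays, at most 1.14-fold apart in any pair.

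Caspases and the apoptosome differed little on FGFR3Act from FGFR3WT, with log2 differences between -0.42 for Apaf1 and 0.29 for Cycs, and Casp8 and Casp6 were over 1.5-fold lower on FGFR3KO than on FGFR3WT, as were 13.7% of all genes compared in that pair. Casp8, the initiator caspase at death receptors, had 208 on FGFR3Act, 123 on FGFR3KO and 232 on FGFR3WT. It was 1.88-fold lower on FGFR3KO than on FGFR3WT, with the FGFR3KO signal at the level of the floor. Casp6, an effector caspase that cleaves lamin A, had 221 on FGFR3Act, 142.5 on FGFR3KO and 229.7 on FGFR3WT, 1.61-fold lower on FGFR3KO than on FGFR3WT. Casp2, an initiator, had 618, 602 and 729 on FGFR3Act, FGFR3KO and FGFR3WT, and these stood at most 1.21-fold apart.

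Casp9, the caspase of the apoptosome, had 267 on FGFR3Act, 236 on FGFR3KO and 259 on FGFR3WT. Apaf1, its platform, had 222, 279 and 296, and Cycs, cytochrome c, 453, 396 and 370 on the same arrays. Apaf1 was thus 1.33-fold lower and Cycs 1.22-fold higher on FGFR3Act than on FGFR3WT, both within the gap between probe sets of 1 gene at its 90th percentile. A further Casp9 probe set had 178.6 on FGFR3Act, 219 on FGFR3KO and 107.7 on FGFR3WT, which reversed the direction of the small FGFR3KO difference. The inflammatory caspase gene Casp1, active in macrophages, had 115.6 on FGFR3Act, 34.1 on FGFR3KO and 19.7 on FGFR3WT. All 3 lay below the floor, so neither a fold nor an order is given. Casp12 had 82.5, 71.1 and 78.1 on the same arrays, also below the floor.

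At the death receptor, Cflar was the member furthest apart in both pairs with FGFR3Act. It had 1138 on FGFR3Act, 223 on FGFR3KO and 354 on FGFR3WT. FGFR3Act was 5.10-fold above FGFR3KO, rank 55 from the top of 5297 genes, and 3.21-fold above FGFR3WT, rank 87 of 5244. FGFR3KO was 1.59-fold below FGFR3WT, inside the central 90% of all genes. Cflar has 1 probe set, and macrophages also express this gene. The receptor gene Fas had 143 on FGFR3Act, 74.1 on FGFR3KO and 180.5 on FGFR3WT on a probe set of the kind that may bind related transcripts. FGFR3KO, below the floor, was at least 1.48-fold lower than FGFR3WT. A control probe set of the manufacturer annotated to Fas had 360.3 on FGFR3Act, 219.6 on FGFR3KO and 456 on FGFR3WT, 2.08-fold lower on FGFR3KO than on FGFR3WT and 1.27-fold lower on FGFR3Act. Both probe sets thus had the order FGFR3WT, FGFR3Act, FGFR3KO from high to low.

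Fadd, the adaptor that recruits caspase 8, had 218 on FGFR3Act, 293 on FGFR3KO and 237 on FGFR3WT. Tradd, the adaptor of tumour necrosis factor receptor 1, had 830.1 on FGFR3Act, 1281 on FGFR3KO and 1054 on FGFR3WT. Both adaptors were highest on FGFR3KO, and Tradd was 1.54-fold lower on FGFR3Act than on FGFR3KO. Birc2, the ubiquitin ligase cIAP1 of the inhibitor of apoptosis family, had 167 on FGFR3Act, 168 on FGFR3KO and 300.3 on FGFR3WT. The mutants were 1.01-fold apart and stood 1.80-fold and 1.78-fold below the one FGFR3WT array that both comparisons share. Birc3, cIAP2, had 151.5 on FGFR3Act, 104 on FGFR3KO and 105 on FGFR3WT, above the floor only on FGFR3Act, which was at least 1.25-fold above FGFR3WT. Xiap, the direct caspase inhibitor, had 78.2, 59.3 and 50.3 on FGFR3Act, FGFR3KO and FGFR3WT, all below the floor.

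**Figure D3:**
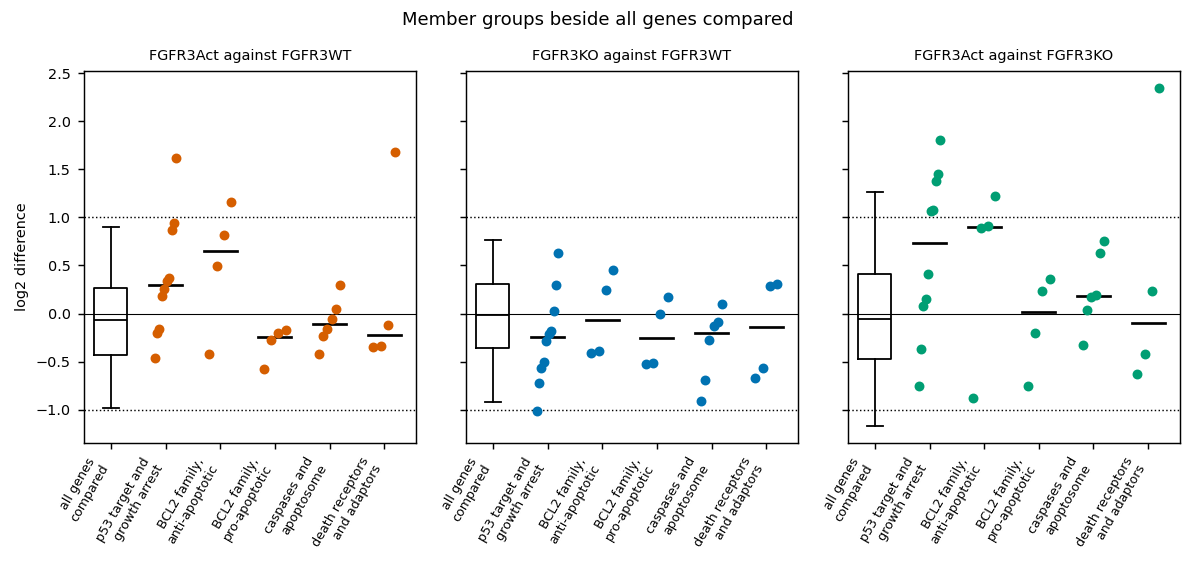
Log2 differences of 5 groups of members (points, 1 per gene, with the median as a bar) beside all genes compared (box between the quartiles, with whiskers at percentiles 5 and 95), for FGFR3Act against FGFR3WT, FGFR3KO against FGFR3WT and FGFR3Act against FGFR3KO. The medians of p53 target and growth arrest genes (0.74) and of anti-apoptotic BCL2 genes (0.90) lie above the box in the third panel. Cflar stands alone among the death receptor genes.

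The 10 p53 target and growth arrest genes had a median log2 difference of 0.30 in FGFR3Act against FGFR3WT, -0.25 in FGFR3KO against FGFR3WT and 0.74 in FGFR3Act against FGFR3KO. Over all genes compared the medians were -0.07, -0.02 and -0.05. The 4 anti-apoptotic genes had medians of 0.65, -0.07 and 0.90, and the 4 pro-apoptotic genes compared -0.24, -0.26 and 0.02, in the same pairs. The 6 caspase and apoptosome genes had -0.11, -0.21 and 0.18, and the 4 death receptor genes -0.23, -0.14 and -0.10. After median centring the caspase median in the first pair was 0.03 and the anti-apoptotic median in the second was 0.04, so neither has a settled direction there. In FGFR3KO against FGFR3WT, 22 of the 32 members compared were lower (51.5% of all genes compared), with a median over all 32 of -0.28, which was -0.16 after median centring. Of 31 members above the floor on every array, 11 had the order FGFR3Act, FGFR3WT, FGFR3KO from high to low, where 21.6% of 4503 genes had it. These were Mdm2, Ccng1, Gadd45a, Perp, Sesn1, Plk2, Mcl1, Bcl2l2, Bcl10, Casp9 and Cflar, by their brightest probe set. Further Casp9 probe sets were instead highest on FGFR3KO, with 180.3 and 219 there. The opposite order, FGFR3KO, FGFR3WT, FGFR3Act, held for 5 members by their brightest probe set (Bak1, Bcl2, Fadd, Gadd45b and Tradd) and for 25.8% of genes. The second probe sets of Bcl2 and Gadd45b were instead highest on FGFR3Act. Markers of cycling cells had that opposite direction, with medians of -1.10 in FGFR3Act against FGFR3WT and 0.95 in FGFR3KO against FGFR3WT.

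Pooled over all roles, genes of the same pathways outside the member list had medians close to those of all genes, while some roles lay further off. Of 126 further genes listed by role, 78 were on the array. In FGFR3Act against FGFR3WT, 62 were compared: 2 passed 2-fold upward (4.14% of all genes) and 3 downward (4.79%), and the median was -0.16. In FGFR3KO against FGFR3WT the counts were 0 and 1 of 61 (median 0.05), where 1.93% and 3.61% of all genes passed. In FGFR3Act against FGFR3KO they were 3 and 5 of 61 (median -0.14), where 8.33% and 7.49% of all genes passed. The 10 p53 regulators and kinases compared had a median of -0.41 in FGFR3Act against FGFR3WT, and 0.04 in FGFR3KO against FGFR3WT. In the first of these pairs 9 of 10 were lower, where 55.7% of all genes were. The 7 other caspases and effectors compared had medians of -0.10 and 0.43 in those pairs. Among 15 other p53 targets compared, FGFR3Act was past 2-fold above FGFR3KO for 0 and below it for 2, and the median was -0.21. Among the 10 p53 target and growth arrest genes of the member list the counts were 5 above and 0 below. Of all genes compared in that pair, 8.33% were past 2-fold above and 7.49% below. Cdkn1a, the p21 inhibitor through which p53 stops the cell cycle, had 7034 on FGFR3Act, 7088 on FGFR3KO and 7113 on FGFR3WT, with log2 differences of -0.02, -0.01 and -0.01 in the 3 pairs. These values are from the brighter of 2 Cdkn1a probe sets, and the gene was named after its values were seen. The medians of the other p53 targets and of the member list's target and growth arrest genes thus lay on opposite sides of 0. The difference between them was not tested, and both lists were chosen with earlier results of these data known.

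**Figure D4:**
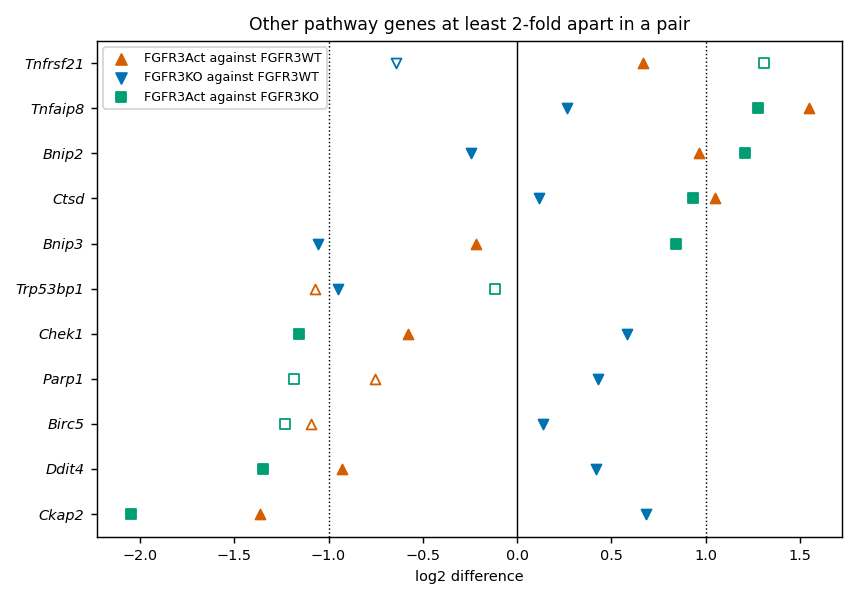
Log2 differences of the 11 further pathway genes at least 2-fold apart in a pair, with 1 symbol per pair (FGFR3Act against FGFR3WT, FGFR3KO against FGFR3WT, FGFR3Act against FGFR3KO); open symbols are bounds with 1 array at the floor, and dotted lines mark 2-fold. Tnfrsf21, Tnfaip8 and Bnip2 are right of the 2-fold line on FGFR3Act against FGFR3KO, and Ckap2 is furthest to the left.

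Of those further genes, Tnfaip8, an NF-kappaB-induced gene of survival signalling, had 832 on FGFR3Act, 343 on FGFR3KO and 285 on FGFR3WT. FGFR3Act was 2.92-fold above FGFR3WT and 2.43-fold above FGFR3KO. Tnfrsf21, death receptor 6, had 302 on FGFR3Act, 121.4 on FGFR3KO and 190.2 on FGFR3WT, with FGFR3Act at least 2.48-fold above FGFR3KO. Bnip2, a partner of Bcl2, had 2981 on FGFR3Act, 1292 on FGFR3KO and 1529.9 on FGFR3WT, 2.31-fold higher on FGFR3Act than on FGFR3KO. All 3 were higher on FGFR3Act than on both other arrays, as Cflar and Mcl1 were. The lysosomal protease gene Ctsd had 12727 on FGFR3Act, 6661 on FGFR3KO and 6149 on FGFR3WT, 2.07-fold higher on FGFR3Act than on FGFR3WT, on the array with the macrophage and leukocyte markers. Bnip3, a hypoxia-induced mitochondrial protein, had 1329 on FGFR3Act, 742 on FGFR3KO and 1543 on FGFR3WT, 2.08-fold lower on FGFR3KO than on FGFR3WT.

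Lower on FGFR3Act than on FGFR3KO were several genes that also serve the cell cycle. Ckap2, a spindle protein, had 186 on FGFR3Act, 770.3 on FGFR3KO and 479.6 on FGFR3WT, 4.13-fold lower on FGFR3Act than on FGFR3KO. Birc5, survivin, which acts in mitosis as well as in survival, had 30.8 on FGFR3Act, 288 on FGFR3KO and 262 on FGFR3WT, which put FGFR3Act at least 2.35-fold below FGFR3KO. Chek1, the checkpoint kinase of replication stress, had 170.5, 380.2 and 254 on FGFR3Act, FGFR3KO and FGFR3WT, 2.23-fold lower on FGFR3Act than on FGFR3KO. These genes had the direction of the cycling cell markers, of which 12 of 12 compared lay 2-fold or more below FGFR3KO on FGFR3Act. In that pair 7.49% of all genes did. On FGFR3Act 7 of 13 cycling cell markers were above the floor, so some of these differences are bounds. Parp1, a DNA break sensor, had 84.2 on FGFR3Act, 279 on FGFR3KO and 207 on FGFR3WT, with FGFR3Act at least 2.27-fold below FGFR3KO. Ddit4, a stress-induced inhibitor of mTORC1, had 1055 on FGFR3Act, 2688 on FGFR3KO and 2011 on FGFR3WT, 2.55-fold lower on FGFR3Act than on FGFR3KO. Trp53bp1, a DNA break repair protein that binds p53, had 104 on FGFR3Act, 133.1 on FGFR3KO and 257 on FGFR3WT, with FGFR3Act at least 2.10-fold below FGFR3WT.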

How the data were processed

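Affymetrix arrays measured RNA of dermal fibroblasts, with 1 deposited column for each of 3 genotypes. The deposited intensities are linear MAS5 signals per probe set, per the submitters' processing notes; no source used here gives the version, scaling target or detection calls. The table has 9889 probe sets, 18 of them controls. The platform annotation gave 9053 probe sets 1 symbol and 323 several. Of the probe sets with 1 symbol, 9041 were matched by gene ID to the RefSeq table of GRCm38.p6. Each gene was represented by the non-control probe set of highest mean log2 signal. Signals under the 40th percentile of an array were raised to it, log2 was taken, and no further scaling was applied. With 1 column per genotype there was no test; genes at least 2-fold apart were counted beside all genes compared. The number of arrays limits the precision.

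The members and all lists were chosen with earlier results of these data known. Members were described by role, with every member named; further pathway genes were named where at least 2-fold apart in a pair. Alternatives were quantile normalisation, median centring, cyclic loess (limma 3.58.1 in R 4.3.3), floors at the 20th and 60th percentiles, an offset of 12.2 in place of the floor, other filters, other probe set choices and a 1.5-fold threshold. Letting in control probe sets was added after seeing the data. The arithmetic was tested on simulated data (Python 3.11.15, pandas 2.3.3, numpy 2.4.6).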

Additional observations from a re-analysis of the deposited data

How the results depend on the processing

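The 3 counts of members at least 2-fold apart were recomputed under 12 alternatives and 1 added after seeing the data. In FGFR3Act against FGFR3WT (3 members) the count was 5 after median centring, with Ccng1 and Plk2 added, 4 with a floor at the 20th percentile, with Casp1 added, 2 with the mean over probe sets or the second brightest one, without Bcl2l1, and 7 at a 1.5-fold threshold, which 27.7% of all genes passed. In FGFR3KO against FGFR3WT (1 member) it was 0 after quantile normalisation, median centring or a floor at the 60th percentile, 2 with a floor at the 20th percentile or with control probe sets let in (Fas and Sesn1), and 8 at 1.5-fold (1246 of all 5184 genes). In FGFR3Act against FGFR3KO (8 members) it was 17 at 1.5-fold (38.6% of all genes) and between 6 and 9 under the others. The Sesn1 difference in that pair was -0.0412 under the 60th percentile floor, which raised FGFR3KO above the FGFR3Act signal. Cflar and Perp were at least 2-fold higher on FGFR3Act in both pairs under all 12 alternatives that give them a value. Median centring moved the median of all genes from -0.07 to 0.07 in FGFR3Act against FGFR3WT, and its split from 217 higher and 251 lower to 292 and 160; relative to the median, the calls of Ccng1 and Plk2 rest on that shift. In FGFR3KO against FGFR3WT the split was 100 higher and 187 lower, and 154 and 124 after centring. No paired analysis was possible because each genotype has 1 column. Dim probe sets, such as those of Casp1, Xiap, Bik and Casp12, cannot be compared above background.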

Other observations

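The genes below were named after their values were seen. For some genes the wild-type array stood apart from both mutants, which were compared with that same array. Among the 4503 genes above the floor on every array, 14.9% had the order FGFR3WT, FGFR3Act, FGFR3KO from high to low. A further 16.4% had FGFR3WT, FGFR3KO, FGFR3Act. FGFR3WT was lowest in 9.88% with FGFR3Act highest and in 11.4% with FGFR3KO highest. Mdm4, the partner of Mdm2 in holding p53 back, had 316.5 on FGFR3Act, 359 on FGFR3KO and 559.5 on FGFR3WT. Mdm4 has 2 probe sets, and these are values of the brighter one. Tnfrsf1a, tumour necrosis factor receptor 1, had 1147 on FGFR3Act, 1136 on FGFR3KO and 1806 on FGFR3WT. Both were lower on the mutants, as were Birc2 and Trp53bp1. Casp4, an inflammatory caspase, had 216 on FGFR3Act and 187 on FGFR3KO and was below the floor on FGFR3WT, at 103.6. Cdkn2a, the locus of p16 and of the Mdm2 inhibitor p19ARF, had 244 on FGFR3Act, 184.5 on FGFR3KO and 131 on FGFR3WT, 1.86-fold higher on FGFR3Act than on FGFR3WT. Cdkn2a was graded over the arrays, with log2 differences of 0.40 in FGFR3Act against FGFR3KO and 0.50 in FGFR3KO against FGFR3WT. Its FGFR3WT signal lay near the floor. With 1 FGFR3WT column, a feature of that culture and a difference between wild type and both mutants cannot be told apart.

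Tnf, the ligand of that receptor and a product of macrophages, had 141.5 on FGFR3Act, above the floor, against 22.5 on FGFR3KO and 18.5 on FGFR3WT. The p53 target Phlda3, an inhibitor of the kinase Akt, had 1332 on FGFR3Act, 2660.1 on FGFR3KO and 1752 on FGFR3WT, the opposite order to Mdm2, Sesn1 and Perp. Zmat3, another p53 target, had the order of Mdm2, with 2165 on FGFR3Act, 1451 on FGFR3KO and 1829.6 on FGFR3WT.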
